A study of Mus musculus with 8 samples.

Results

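Adipocyte genes were examined in mouse liver: the fatty acid carrier Fabp4, the adipokines Adipoq, Lep, Retn and Cfd, the lipid droplet coat gene Plin1, the nuclear receptor gene Pparg and the lipase gene Lpl. The 8 genes were fixed by name, and every probe whose gene symbol matched was taken, 19 probes of the 56605 on the array (8 of 26866 genes). Signal split the set evenly. Fabp4, Lep, Pparg and Lpl were well above background on all 8 arrays with at least 1 probe, whereas Adipoq, Cfd, Plin1 and Retn were not well above background on any array with any of their probes. Fabp4 stood higher in the thymectomised group by a log2 difference of 0.47 ± 0.11 (SE, n = 4 arrays per group), which did not pass the test across all probes.

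Liver RNA came from female NFS/sld mice, in which early thymectomy serves as a model of primary Sjögren's syndrome, where immune cells attack the glands that make saliva and tears. In 1 group the thymus had been removed on day 3 after birth and liver was taken 8 weeks after that surgery (Tx, 4 arrays). The other group kept its thymus (nonTx, 4 arrays); its age, and whether it had a sham operation, are not given in the sources used here. The labels call the replicates independent without naming animals, so a p-value here reflects only how these samples scatter, which may be technical.

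White adipocytes store triglyceride in a single droplet coated with perilipin and secrete hormones, called adipokines, that act on liver and brain. PPAR gamma is the transcription factor that drives their differentiation and switches on Fabp4, Adipoq, Plin1 and Lpl. In liver the same receptor is normally low in hepatocytes and rises in fatty liver, while Fabp4 and Lpl are also made by macrophages and by the endothelium or muscle of other organs. A piece of liver can also carry attached fat, for which Adipoq, Plin1 and Cfd are the most restricted markers among these genes.

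Among the 4 genes for adipokines Lep was well above background and Adipoq, Cfd and Retn were not. The bases just upstream of the transcription starts of these 4 genes are shown as a description. Whether they bear on which genes were detected was not tested. RefSeq's promoter table (build GRCm38.p6) held 6 of the 8 genes. Each line gives the last 120 bases before the start, 5′ to 3′ on the + strand. Capitals mark 2 motifs searched on both strands: TTGCGCAA, a palindrome bound by C/EBP factors, and TATAA, the core of a TATA box.
Lep, chr6:29060101-29060220: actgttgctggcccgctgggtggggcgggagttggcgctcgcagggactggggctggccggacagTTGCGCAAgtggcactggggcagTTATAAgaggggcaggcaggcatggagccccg
Adipoq, chr16:23146416-23146535: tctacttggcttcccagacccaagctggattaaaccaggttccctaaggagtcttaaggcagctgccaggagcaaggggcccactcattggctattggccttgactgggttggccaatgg
Cfd, chr10:79890733-79890852: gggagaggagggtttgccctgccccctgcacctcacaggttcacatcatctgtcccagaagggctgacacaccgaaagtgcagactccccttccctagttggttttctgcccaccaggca
Retn, chr8:3655650-3655769: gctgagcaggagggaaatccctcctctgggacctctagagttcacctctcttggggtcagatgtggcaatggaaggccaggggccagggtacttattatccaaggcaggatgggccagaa
The Lep window held TTGCGCAA from 55 bases before the start, and TATAA on both strands, overlapping in TTATAA, from 32 bases before it. Over all 32851 promoter windows of this length, 0.0822% held TTGCGCAA and 11.8% held TATAA. The windows of Adipoq, Cfd and Retn held neither. A match describes the letters of the window, and these arrays did not measure binding.

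The 75th percentile of intensity, the value each array was scaled to, lay between 273.6 and 301.8 in nonTx and was 330, 249.6, 229.8 and 224.8 on Tx replicates 1 to 4. Tx replicates 2 to 4 thus lay below every nonTx array. The scanner flags a spot as well above background when it is clearly brighter than its surroundings. From 54.2% to 57.1% of probes had that flag on the nonTx arrays, 55.5% on Tx replicate 1 and 51.1% to 52.5% on the other Tx arrays, and the lowest intensity with it lay between 12.2 and 16.1. All 8 arrays were on 1 slide, nonTx in one row and Tx in the other, so slide row and group cannot be told apart. The 10 hepatocyte genes checked, among them Alb (albumin) and Cyp2e1, were well above background on every array. Their median log2 difference was -0.01, and none of them was called. Ttr (transthyretin) differed by -0.37 ± 0.07 (adjusted p = 0.185 by limma) and G6pc, the last enzyme of glucose release, by -0.62 ± 0.14 (adjusted p = 0.248), both with every Tx array below every nonTx array after scaling. Tat, an enzyme of tyrosine breakdown, differed by 0.26 ± 0.19 (adjusted p = 0.520).

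Adipoq encodes adiponectin, a hormone made almost only by adipocytes. Values of single arrays are given throughout in the order of replicates 1 to 4. The single Adipoq probe read 3.56, 9.76, 2.79 and 3.48 on the nonTx arrays and 3.22, 3.35, 5.41 and 3.34 on the Tx arrays. The groups overlapped, and each value lay under the lowest well-above-background signal of its array. Values this close to the floor have no order, and no fold is given for this gene.

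Cfd encodes complement factor D, also called adipsin, a serine protease of the alternative complement pathway that fat secretes. Its brighter probe read 3.79, 2.89, 3.02 and 13.1 on the nonTx arrays and between 3.04 and 3.70 in Tx. The value of 13.1 in nonTx replicate 4 stood apart from the others, yet the scanner did not mark it as well above background. The second Cfd probe read 5.62 on that array and between 2.59 and 6.69 over all 8.

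Plin1 encodes perilipin 1, the main droplet coat protein of adipocytes. Its 3 probes read between 2.81 and 10.9 over all arrays. The probe for the RefSeq transcript was the dimmest of them on average, between 2.81 and 3.82. With the brightest probe the mean intensity was 8.13 ± 3.61 in nonTx and 4.80 ± 2.32 in Tx (SD, n = 4 each), values that overlapped. The other probes lay the other way, with means of 4.2 and 3.13 in nonTx and 5.33 and 3.41 in Tx. Values this close to the floor have no order.

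Retn encodes resistin, in mice an adipocyte hormone that opposes insulin action. Its brighter probe read 3.38, 7.62, 5.82 and 13.3 on the nonTx arrays, and 5.70, 5.12, 2.67 and 5.01 on the Tx arrays. Its other probe read between 2.64 and 8.97. The groups overlapped on both probes, and the 13.3 of nonTx replicate 4, the same array that was high for Cfd, was again not well above background. On that array the second Retn probe read 3.70.

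**Figure D1:**
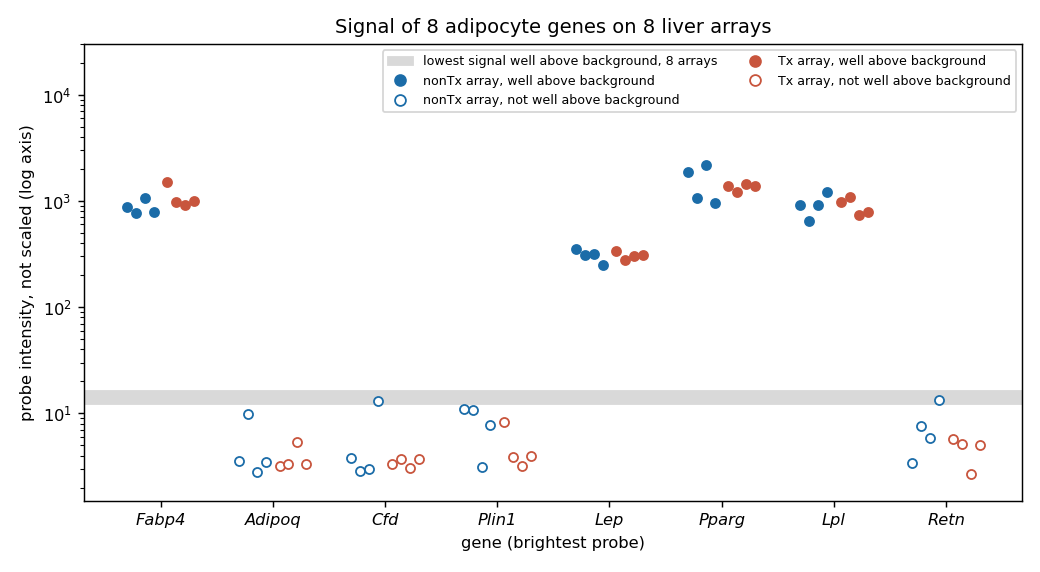
Intensity of the brightest probe of each of the 8 genes on every array (log axis, not scaled between arrays; blue nonTx, red Tx; open points are not well above background; the grey band spans the lowest well-above-background signal of the 8 arrays, 12.2 to 16.1). Fabp4, Lep, Pparg and Lpl lie far over the band on all arrays, while the points of Adipoq, Cfd, Plin1 and Retn are all open. Heights of different genes are not comparable, because each probe has its own response.

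None of the 8 probes of these 4 genes was well above background on any of the 8 arrays. The authors' deposited table, which carries a detection call of its own, likewise lists them as detected on 0 arrays. Of all 26866 genes on the array, 61.4% had this flag on 3 or more arrays of either group, which is the condition for being tested here. Of the 8 adipocyte genes, 4 met it.

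Other adipocyte genes, listed with earlier results of these data known, were mostly detected. Of 12, 11 were tested, and Trarg1, which regulates the glucose transporter GLUT4 in fat and muscle, had no array well above background. Some of the 11 also work in hepatocytes, such as Gpd1 (glycerol phosphate dehydrogenase) and Pnpla2 (the triglyceride lipase ATGL). Of 6 brown adipocyte genes, 4 were not well above background on any array: Ucp1, the uncoupling protein, Cidea, Cox8b and Dio2. Ucp1 read between 2.74 and 3.72 in nonTx and between 2.83 and 3.48 in Tx.

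Genes of tissues that lie near the liver were read on the same arrays as the adipocyte probes. Cpa1, the pancreatic carboxypeptidase, read 163 on nonTx replicate 3 and at most 13.4 on the others. Pnlip, pancreatic lipase, read 50.2 and Prss2, trypsin 2, 25.2 on that same array, where they were well above background. Adipoq read 2.79 there and the 3 Plin1 probes at most 5.79. Of 8 pancreatic genes 4 were tested, 3 higher and 1 lower in Tx, with 0 called, and their list summed to 8940.7 to 14843.6 in nonTx and 14666.9 to 21244 in Tx on the scaled signal. That sum is led by Cela1, an elastase read, before scaling, between 7907.3 and 14448.6 in nonTx and between 14947.7 and 16780.4 in Tx. Its 7907.3 was on nonTx replicate 3, the array where Cpa1, Pnlip and Prss2 were high, and was its lowest of the 8 arrays. Cela1 thus did not follow these 3 genes there. After scaling the Cela1 groups overlapped, with a log2 difference of 0.61 ± 0.20 (adjusted p = 0.313 by limma). Msln, a marker of the mesothelium that covers the liver, read between 60.1 and 175 in nonTx, and 270, 5.51, 94.6 and 64.5 on the Tx arrays. On Tx replicate 1, the array with the most Msln, Adipoq read 3.22. Of the 5 mesothelial genes 4 were tested; 0 were called, and their differences ran from -1.05 to -0.53. Upk3b and Upk1b, well above background on 1 and 2 Tx arrays, entered only through nonTx, so the list's lower values in Tx are no support for a difference. The summed scaled signal of the list ran from 124.6 to 289.9 in nonTx and from 30.7 to 376.9 in Tx. Skeletal muscle genes gave 2 tested of 6, and 3 of them, among them Mb (myoglobin), were not well above background on any array.

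Fabp4 encodes the cytosolic fatty acid carrier of adipocytes, also called aP2. Its brighter probe read 874.7, 760.7, 1071.2 and 787.1 on the nonTx arrays and 1501, 985.1, 910.5 and 996.8 on the Tx arrays. As read, the groups overlapped, since nonTx replicate 3 was above 3 of the 4 Tx arrays. After each array was scaled to its 75th percentile, the log2 values were 1.54, 1.46, 1.89 and 1.52 in nonTx and 2.19, 1.98, 1.99 and 2.15 in Tx, and every Tx array lay above every nonTx array. The difference was 1.39-fold (log2 difference 0.47 ± 0.11 SE, 95% interval 0.23 to 0.72).

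By limma over 30955 probes the adjusted p of this probe was 0.265, so Fabp4 was not called. The exact two-sided permutation test of its 8 values gave p = 0.0286, the smallest that 4 against 4 arrays allow. Groups did not overlap for 8.06% of all tested genes, 5.11% with Tx higher and 2.95% with Tx lower, and for 1 of the 4 tested adipocyte genes, with Tx higher. No probe of the whole array passed the adjusted threshold of 0.05 in this fit (0%), while 13.2% had an unadjusted limma p under 0.05. Of the 4 tested adipocyte genes, 0 were called and 1, Fabp4, had an unadjusted limma p under 0.05, against 13.9% of all tested genes.

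The second Fabp4 probe, for the same transcript, pointed the same way. It read 93.7, 69.5, 97.1 and 79.1 on the nonTx arrays and 156, 81.5, 71.6 and 94.7 in Tx. Scaled, the log2 values ran from -1.99 to -1.57 in nonTx and from -1.68 to -1.08 in Tx, with the groups overlapping. Its log2 difference was 0.35 ± 0.16 (SE), with an adjusted p of 0.387 by limma and an exact permutation p of 0.114. Tx replicate 1 was the highest of the 8 arrays on both probes.

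Genes of liver macrophages and liver endothelium were read on the same arrays as Fabp4. Of 8 macrophage and Kupffer cell genes, 6 lay higher and 2 lower in Tx, at a median of 0.04 on the log2 scale and 0 called. Cd5l, a secreted macrophage protein, differed by 0.27 ± 0.16 and the scavenger receptor Marco by 0.26 ± 0.24. The list's summed scaled signal ran from 38668 to 49526 in nonTx and from 36400 to 54821 in Tx. Of 8 endothelial genes, 4 lay higher and 4 lower, with a median of -0.01 and 0 called; Kdr, the VEGF receptor 2, differed by -0.18 ± 0.10 and Clec4g, a lectin of sinusoidal endothelium, by 0.17 ± 0.09. The summed scaled signal of that list ran from 31125 to 32520 in nonTx and from 31089 to 36861 in Tx. Their part in the Fabp4 value was not tested. In whole liver RNA, fewer cells of a type and less RNA per cell cannot be told apart.

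The related carriers differed among themselves. Fabp1, the liver carrier, differed by 0.20 ± 0.09 (adjusted p = 0.379 by limma) and Fabp5, the epidermal carrier and close relative of Fabp4, by 0.46 ± 0.22 (adjusted p = 0.400). Fabp3, the heart and muscle carrier, had groups that did not overlap, with Tx below nonTx by -0.42 ± 0.15 (adjusted p = 0.324). It read between 48.2 and 56.4 in nonTx and between 26.9 and 46.1 in Tx. None of them was called.

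**Figure D2:**
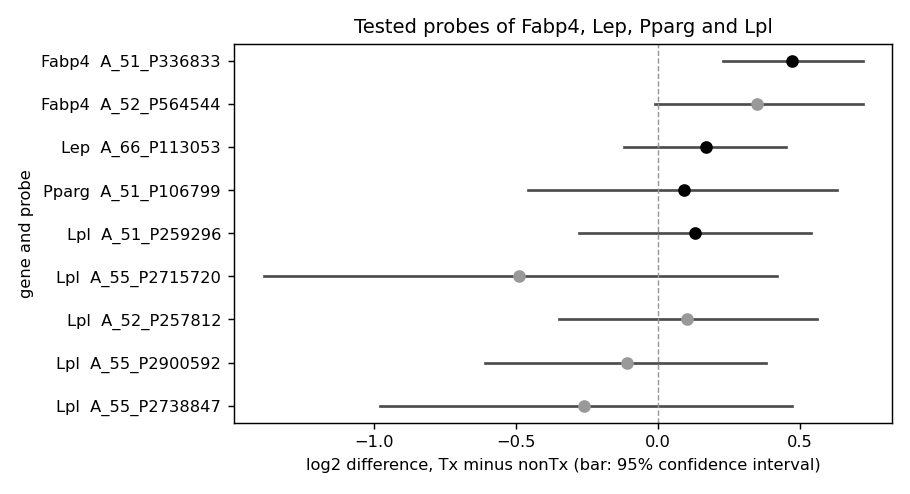
Log2 difference, Tx minus nonTx, of the 9 tested probes (point; black for the brightest probe of a gene, grey for its others) with its 95% confidence interval (bar). Only the interval of the brighter Fabp4 probe, 0.23 to 0.72, leaves out 0; its adjusted p was 0.265.

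Lep encodes leptin, the hormone by which fat signals its stores to the brain. Its 1 probe on the array read 350.7, 307, 318.9 and 250.4 on the nonTx arrays and 334.5, 279.4, 303.9 and 309.3 on the Tx arrays. All 8 arrays were well above background and the groups overlapped, with means of 307 ± 41.8 and 307 ± 22.6 (SD, n = 4 each). The coefficient of variation over the 8 arrays was 10.1%, the lowest of the tested probes of these genes. Scaled, the log2 difference was 0.17 ± 0.13 (SE, 95% interval -0.12 to 0.45), with an adjusted p of 0.554 by limma.

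With 1 probe on the array, no second one checks the Lep signal, and Adipoq, Cfd, Plin1 and Retn were not well above background on the same arrays. Lepr, the leptin receptor, was well above background on all arrays and differed by 0.06 ± 0.20 (adjusted p = 0.911 by limma), with intensities between 1030.6 and 2009.5 in nonTx and between 1279.1 and 1603.2 in Tx.

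Pparg encodes PPAR gamma. The probe described for transcript variant 2 read 1881, 1058, 2164 and 951 on the nonTx arrays and 1391, 1208, 1444 and 1392 on the Tx arrays. The nonTx arrays formed a high pair, replicates 1 and 3, and a low pair, replicates 2 and 4, and all Tx arrays lay between them in intensity. The SD of the scaled log2 value was 0.54 in nonTx and 0.28 in Tx, and the difference was 0.09 ± 0.24 (95% interval -0.46 to 0.63, adjusted p = 0.890 by limma). Its direction rested on single arrays: without nonTx replicate 2 it was -0.04, and without nonTx replicate 4 it was -0.09. The second Pparg probe, made for an Ensembl transcript, stayed below that mark on every array, reading between 2.72 and 3.72.

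Genes that PPAR gamma switches on in fatty liver gave no common direction. Of 9, 8 were tested, 5 higher and 3 lower in Tx, at a median of 0.15 on the log2 scale and 0 called. The median over all 16495 tested genes was 0.03. Cidec, a droplet fusion protein, differed by 0.33 ± 0.20 and Plin4, a droplet coat protein, by 0.50 ± 0.26. Plin4 read 385 on Tx replicate 1 and between 103 and 171 on the other 7 arrays.

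Lpl encodes lipoprotein lipase, which splits the triglyceride of circulating lipoproteins at the capillary wall. It had 6 probes, of which 5 were tested. The brightest, for the RefSeq transcript, read 919.6, 651, 919 and 1211 on the nonTx arrays and 979.5, 1087, 739 and 786 on the Tx arrays. The groups overlapped, and the log2 difference was 0.13 ± 0.19 (95% interval -0.28 to 0.54, adjusted p = 0.762 by limma). Without nonTx replicate 2, the lowest array, the difference was -0.01.

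The probes of Lpl followed each other within each kind of transcript more than between kinds. Over the 8 arrays the 3 probes for the RefSeq transcript correlated with Pearson's r between 0.75 and 0.93, and the 3 for Ensembl transcripts with r between 0.59 and 0.91. The 0.91 was between A_55_P2900592 and A_55_P2738847, which are for the same Ensembl transcript. A_55_P2715720, for a different Ensembl transcript, gave r of 0.66 and 0.59 with them. Between the 2 kinds of probe r ran from -0.45 to 0.31. Both the 0.93 and the -0.45 involve A_66_P123790, an untested probe well above background on 4 of the 8 arrays. These r are descriptions, since all probes were read from the same 8 arrays.

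The widest gap was on Tx replicate 3. A probe for an Ensembl transcript of Lpl (A_55_P2715720) read 516, 394, 407 and 425 on the nonTx arrays, and 443, 433, 87.7 and 349 on the Tx arrays. Its scaled log2 value on Tx replicate 3 was -1.39, against 0.43 to 0.80 on the other Tx arrays. The spot was not marked as an outlier by the scanner. With that array the log2 difference was -0.49 ± 0.40 (adjusted p = 0.585 by limma), and without it 0.02 ± 0.12.

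A second Ensembl probe (A_55_P2900592) read 56.0, 82.6, 37.0 and 52.4 on the Tx arrays, also lowest on Tx replicate 3. A_55_P2738847 was not well above background on Tx replicates 3 and 4, so it gives no order there. Of the RefSeq probes, the brightest read 739 on Tx replicate 3, the lowest of the Tx arrays as read but not after scaling. The log2 differences of the tested RefSeq probes were 0.13 and 0.10, and those of the Ensembl probes -0.49, -0.11 and -0.26, none of them called. The last of these, A_55_P2738847, entered the test only through nonTx. Averaging the 5 tested probes gave -0.12 (adjusted p = 0.794 by limma), the opposite sign to the brightest probe alone.

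**Figure D3:**
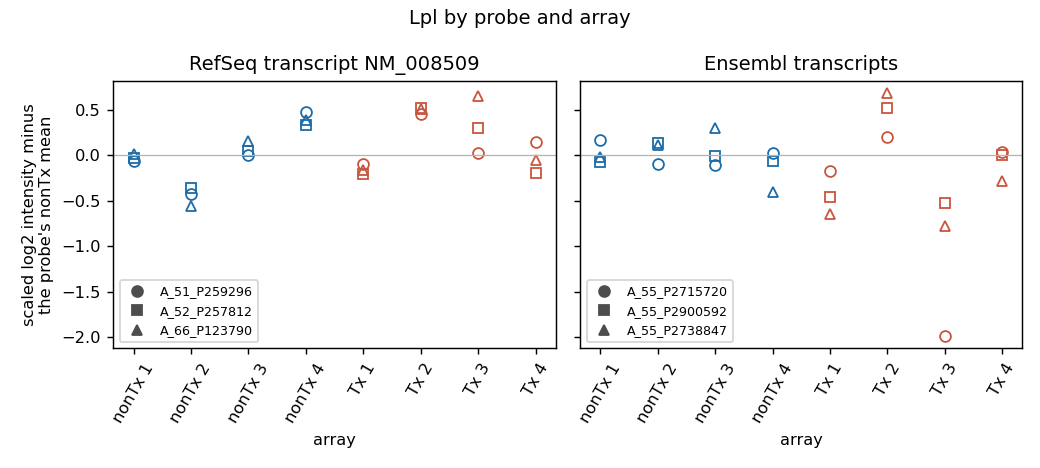
Scaled log2 intensity of the 6 Lpl probes on each array, minus the probe's nonTx mean (blue nonTx, red Tx; 1 symbol per probe; left, probes for the RefSeq transcript; right, probes for Ensembl transcripts). On Tx replicate 3 A_55_P2715720 stands far below its other arrays, at a scaled log2 value of -1.39, while the left-hand probes do not. Triangles include arrays not well above background.

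Receptors and partners of these proteins, which liver itself makes, were all detected. All 19 genes of that list were tested; 16 lay higher and 3 lower in Tx (median log2 difference 0.14), 0 were called, and 6 had an unadjusted limma p under 0.05, all of them higher. Over all tested genes 9286 lay higher and 7209 lower, and 13.9% had an unadjusted p under 0.05. Angptl8, an inhibitor of lipoprotein lipase induced by feeding, differed by 0.64 ± 0.21 (adjusted p = 0.313 by limma) and read 15176.4, 9315.4, 13757.5 and 8109.4 on the nonTx arrays and 22875.7, 10729.2, 15662.9 and 15440.3 on the Tx arrays. The groups overlapped, with Tx replicate 2 within the nonTx range.

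Lmf1, the factor that matures the lipase in the cell, differed by 0.25 ± 0.08 (adjusted p = 0.314 by limma) with every Tx array above every nonTx array after scaling. Gpihbp1, which anchors the lipase to the capillary wall, differed by 0.30 ± 0.10 (adjusted p = 0.322), with overlapping groups. Named after their values were seen, Apoc2, the activator of the lipase, differed by 0.21 ± 0.09 and the adiponectin receptor gene Adipor1 by 0.23 ± 0.08. Other regulators of the lipase in the list, named the same way, differed by -0.21 ± 0.12 (Apoa5), -0.03 ± 0.09 (Apoc3) and 0.29 ± 0.21 (Angptl4). Scaling to the median of each array in place of the 75th percentile moved the median of all tested probes from 0.02 to 0.12, so differences of this size are relative to the scaling. The other adiponectin receptor gene, Adipor2, differed by 0.14 ± 0.10.

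Among the other adipocyte genes, 9 lay higher and 2 lower in Tx with a median of 0.13, and 0 of 11 were called. Adrb3, the adrenergic receptor by which fat is told to release its store, differed by 1.18 ± 0.29 (adjusted p = 0.282 by limma). It read 15.8, 16.1, 31.5 and 26.4 in nonTx replicates 1 to 4, with 3 of the 4 well above background, and 74.9, 44.6, 28.2 and 37.9 in Tx. After scaling every Tx array lay above every nonTx array, at log2 values between -3.02 and -2.14 against -4.25 to -3.20. The 15.8 of nonTx replicate 1 lay under 16.1, the lowest well-above-background signal of that array. The nonTx mean thus rests partly on signal near the floor, and the size of the difference is uncertain. These values come from 1 of 2 Adrb3 probes, and the other never received the scanner's flag.

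Acvr1c, the activin receptor ALK7, read between 14.1 and 21.7 in nonTx and between 2.61 and 10.8 in Tx, where no array had it well above background. It entered the test only through nonTx, and its nonTx signal was so near the floor that no fold can be bounded. Pnpla2 differed by 0.22 ± 0.08 (adjusted p = 0.338 by limma), with Tx above nonTx on all arrays after scaling. Elovl3, a fatty acid elongase of brown fat and liver, differed by 0.80 ± 0.38 (adjusted p = 0.395), and Cox7a1, a cytochrome oxidase subunit, by 0.05 ± 0.14.

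Retnlg, a resistin relative made by neutrophils, was well above background on all arrays. It read 56.3, 43.4, 30.8 and 48.6 on the nonTx arrays and 98.0, 77.0, 51.6 and 73.8 in Tx. Scaled, all Tx arrays lay above all nonTx arrays, by 0.90 ± 0.20 (adjusted p = 0.247 by limma), while Retn itself was below background throughout. Retnla, a relative made by alternatively activated macrophages and named after its values were seen, read 33.4, 6.93, 10.5 and 51.8 on the nonTx arrays and 152.8, 19.6, 18 and 58.9 on the Tx arrays. It was well above background on 2 nonTx and 4 Tx arrays, so it entered the test only through Tx. Its groups overlapped (adjusted p = 0.445 by limma), and no fold is given. Of 22 relatives of these genes 19 were tested, 13 higher and 6 lower, with a median of 0.07 and 0 called.

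**Figure D4:**
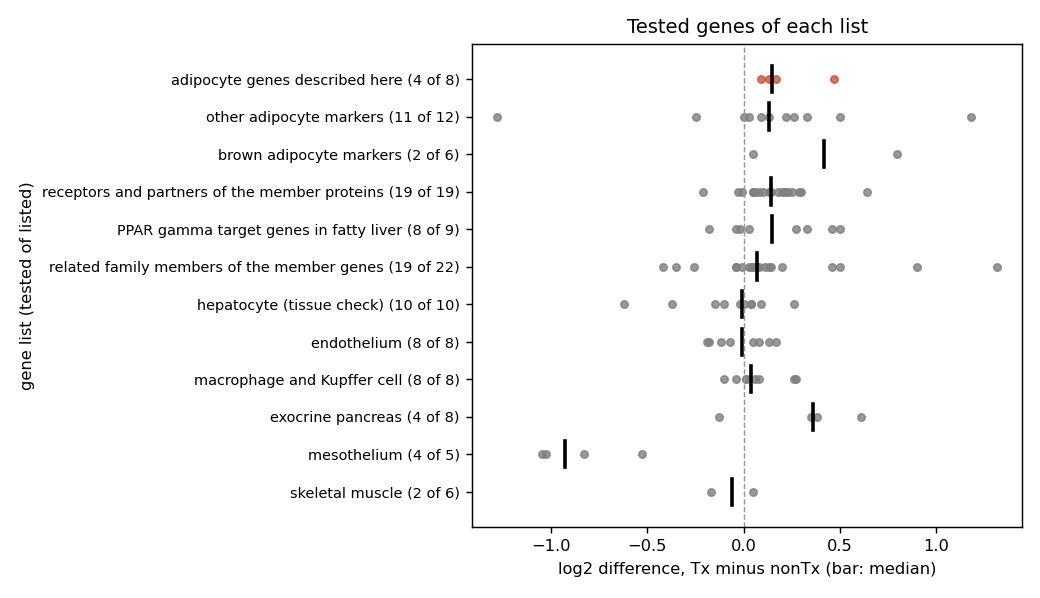
Log2 difference, Tx minus nonTx, of each tested gene (points) by gene list, with the list's median (bar). The 4 tested adipocyte genes lie between 0.09 and 0.47 with a median of 0.15; none of the points was called. A gene could enter through 1 group alone, as Upk3b and Upk1b of the mesothelial list and Lipg, Retnla and Acvr1c did.

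The variation of the 4 detected adipocyte genes between arrays was compared by pairs. Pearson's r over the 8 arrays was 0.68 for Lep with Pparg, 0.40 for Fabp4 with Lep, 0.36 for Fabp4 with Pparg, and between -0.22 and 0.17 for Lpl with the other 3. The genes with the most similar pattern, out of 16491, also differed from one adipocyte gene to the next. For Fabp4 they were Tnfrsf11b, Emc6 and Foxo3 (r between 0.969 and 0.971), and for Lep they included Chad and Grb7 (r of 0.977 and 0.973). For Pparg they were Cald1, Acot2 and Aifm3 (r between 0.953 and 0.970), and for Lpl A930001C03Rik, Polr3gl and Jmjd6 (r between 0.943 and 0.968). The highest r among so many genes over 8 arrays is large by selection, and it is given as a description.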

How the data were processed

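Cy3-labelled cRNA from 0.5 ug of liver RNA was hybridised to one-colour Agilent arrays, 4 Tx and 4 nonTx, per the labels' protocols. Per the file headers, Feature Extraction 10.7.1.1 wrote the deposited intensity (gProcessedSignal); the submitters' processing notes name Agilent Feature Extraction 9.1. The deposited series table repeats these intensities. The authors' log2 columns in it were made by 75th percentile scaling and then subtraction of the probe median, found by rebuilding them from the deposited intensities (within 0.00161).

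From the scanner files, control spots were left out, outlier spots set to missing, and each array's 75th percentile was subtracted from its log2 intensities. Probes flagged well above background on 3 or more arrays of either group were tested with limma 3.58.1 in R 4.3.3 (variance trend, Benjamini-Hochberg over 30955 probes, threshold 0.05). This test was tested on simulated data. The brightest tested probe stood for its gene. Symbols were updated through Entrez identifiers (43901 of 46119 probes matched). Alternatives covered background correction, scaling, filters, variance, replicate block and each array left out. The members and gene lists were chosen with earlier results of these data known. Named list genes were the 3 with the smallest p in each list; others were named after their values were seen. Genes of similar pattern are not given for the members not well above background, whose values have no order. The number of arrays limits the precision. Some genes that these rules would name are not reported here.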

Additional observations from a re-analysis of the deposited data

Results flagged for a closer look

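Of 100 groups of 4 arrays checked, over the adipocyte probes and the named list genes, 7 held an array far from the other 3; chance gives about 1 in 20. The measure is the gap from the highest or lowest array to its nearest neighbour as a share of the group's range. For Fabp4 it was 0.831 in nonTx, where replicate 3 stood at 1.89 against 1.46 to 1.54. For Lpl probe A_55_P2715720 it was 0.831 in Tx, where replicate 3 stood at -1.39 against 0.43 to 0.80. For Cfd it was 0.879 in nonTx, where replicate 4 stood at -4.39 against -6.58 to -6.32, with none of these well above background. The remaining 4 were Angptl8 in Tx (0.964, replicate 2 low), Kdr in Tx (0.847, replicate 1 high), Stab2 in Tx (0.921, replicate 3 low) and Ctrb1 in nonTx (0.848, replicate 3 high).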

How the results depend on the processing

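Fabp4, Lep, Pparg and Lpl were not called in any of the 20 alternatives; Adipoq, Cfd, Plin1 and Retn were tested only without the filter on dim probes and were not called. The Fabp4 difference stayed between 0.41 and 0.57, with an adjusted p between 0.132 and 0.516 by limma, and that of Lep between 0.09 and 0.27. Pparg turned to -0.03 with normexp background correction and ran from -0.09 to 0.28 when single arrays were left out. Lpl ran from -0.01 to 0.29 without single arrays and turned to -0.12 with the mean of its tested probes; the cause was not tested. Over the whole array, where the main fit called 0 probes, 2 were called with normexp, 6 with median scaling, 1 with the authors' log2 values, 1 without a variance trend, 5 with robust variance, 7 with array weights and 26 at a threshold of 0.1. Leaving out single arrays gave between 0 and 188, the latter without Tx replicate 2. With the replicate block 1 probe was called and Fabp4 kept 0.47 (adjusted p = 0.314 by limma). A check of the replicate numbers gave values between -0.01 and 0.10 for same-numbered arrays, so the numbers were not taken to pair the samples. That measure is not the correlation of whole arrays, which lay between 0.977 and 0.994 over the tested probes for all pairs of arrays. No slide block could be fitted, since all arrays were on 1 slide.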
